A study of Homo sapiens with 6 samples.

Results

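The genes described here build cholesterol and fatty acids or sense the supply of sterol in the cell. They were chosen by symbol, as 31 genes of the pathway that the sterol regulatory element-binding proteins (SREBPs) control, and 29 of them had a named probe set among the 17687 genes measured. The missing members are FDFT1 (squalene synthase) and FADS1 (a fatty acid desaturase), for which no named probe set was found, and they are not analysed here. Levels were compared between 3 arrays labelled 15EN and 3 arrays labelled VC (vehicle control), all from SH-SY5Y, an established human neuroblastoma cell line. Per the labels' protocols the line was differentiated with atRA (all-trans retinoic acid) over 96 h in both groups, in medium with 15% heat-inactivated fetal bovine serum. The compound was given at 15 µM, and the series title names it as eurycomanone, a substance from Eurycoma longifolia roots. The labels do not spell out 15EN and do not name the vehicle. Replicates 1, 2 and 3 of each group are given passages 33, 34 and 35 in titles and source names, although every description says passage 33. Nothing else shows that replicates were separate cultures, so each p-value reflects array-to-array spread that could be technical.

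Cholesterol is made from acetyl-CoA through mevalonate, isoprenoid phosphates, squalene and a chain of sterol intermediates. Fatty acids are made from the same acetyl-CoA by carboxylation, chain building, elongation and desaturation. SREBPs are transcription factors held as precursors in the endoplasmic reticulum. When sterol there is low, the escort protein SCAP carries them to the Golgi, where proteases release the active part, and it switches on most of the genes described here. When sterol is ample, INSIG proteins hold SCAP back. SREBF2 encodes the form that acts mainly on sterol genes, and SREBF1 forms that act largely on fatty acid genes.

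Of the 29 measured genes, 13 fell in 15EN and 0 rose (limma, adjusted p under 0.05 over all 17687 genes). The 13 are 44.8% of the members, where 9.09% of all genes were lower, 12.3% higher and 21.4% changed in either direction. The median log2 difference (15EN minus VC) of the 29 genes was -0.59, against 0.01 for all genes, and 24 of the 29 differences were negative. All 3 15EN arrays lay below all 3 VC arrays in 16 members (55.2%), which held for 16.6% of all genes. All 3 lay above in 3 members (10.3%), which held for 19.7% of all genes, and the groups overlapped in the other 10. DHCR7, MSMO1, FADS2 and SCD were 9.29-fold, 5.48-fold, 5.12-fold and 4.002-fold lower in 15EN. INSIG1 also fell, by a size that is uncertain because its 15EN signals lay in the range of the negative controls. The other 16 members did not pass, and they include enzymes that act directly before or after these.

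These directions are relative to the median gene. The hybridization controls, added to each sample before it meets the array, were dimmer in 15EN, at mean log2 signals of 10.60, 10.38 and 10.31 in 15EN replicates 1, 2 and 3, against 11.31, 11.37 and 11.22 in VC. Scaling the arrays to equal controls adds 0.87 to every difference, moves the median gene to 0.88 and the median of the 29 members to 0.28, and leaves 8 members lower and 6 higher. Over all genes that scaling gave 12150 higher and 437 lower, against 2179 higher and 1608 lower as deposited. The distance of each member from the median gene is the same on both scales. In RNA from whole cultures, fewer cells of a type and less RNA per cell cannot be told apart.

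The promoters of 7 members are shown because these genes carry some of the largest differences in each stretch of the pathway, with TM7SF2 as a sterol enzyme whose 15EN values lay above VC. Each is the 250 bases before a RefSeq transcription start (GRCh38.p14), read 5′ to 3′ on the strand of the gene. They lie at chr5:43313413-43313662 (minus strand) for HMGCS1, chr4:165327419-165327668 (plus) for MSMO1, chr11:71448394-71448643 (minus) for DHCR7, chr11:65111622-65111871 (plus) for TM7SF2, chr7:155297628-155297877 (plus) for INSIG1, chr22:41832855-41833104 (plus) for SREBF2 and chr10:100346983-100347232 (plus) for SCD. For HMGCS1 and DHCR7 the table lists 2 starts, and 1 is shown. In both genes CCAAT stood only in the window of the start shown, and the other window held no copy. Capitals mark 3 motifs searched on both strands: CCAAT (the box bound by the factor NF-Y, which reads ATTGG on the other strand), TCACNCCAC (a sterol regulatory element) and CACGTG (an E-box). None of the marked motifs overlaps another.
HMGCS1: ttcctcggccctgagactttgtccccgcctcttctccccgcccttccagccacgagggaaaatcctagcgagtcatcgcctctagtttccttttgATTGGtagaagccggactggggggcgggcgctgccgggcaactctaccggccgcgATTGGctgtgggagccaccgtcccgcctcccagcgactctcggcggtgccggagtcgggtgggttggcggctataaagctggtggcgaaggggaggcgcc
MSMO1: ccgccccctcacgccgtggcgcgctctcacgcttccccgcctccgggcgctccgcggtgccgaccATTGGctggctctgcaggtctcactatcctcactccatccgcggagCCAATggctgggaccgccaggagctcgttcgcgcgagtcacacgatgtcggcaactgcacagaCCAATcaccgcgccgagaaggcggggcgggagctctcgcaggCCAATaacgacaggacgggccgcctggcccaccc
DHCR7: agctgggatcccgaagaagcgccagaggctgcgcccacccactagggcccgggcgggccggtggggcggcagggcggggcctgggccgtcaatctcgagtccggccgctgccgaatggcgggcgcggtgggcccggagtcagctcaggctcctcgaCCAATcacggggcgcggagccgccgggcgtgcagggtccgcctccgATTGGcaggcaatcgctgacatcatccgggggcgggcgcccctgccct
TM7SF2: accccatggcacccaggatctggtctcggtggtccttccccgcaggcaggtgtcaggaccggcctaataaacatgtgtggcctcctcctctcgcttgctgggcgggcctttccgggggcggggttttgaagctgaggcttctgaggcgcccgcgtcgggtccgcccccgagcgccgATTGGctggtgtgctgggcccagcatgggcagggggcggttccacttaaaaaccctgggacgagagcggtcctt
INSIG1: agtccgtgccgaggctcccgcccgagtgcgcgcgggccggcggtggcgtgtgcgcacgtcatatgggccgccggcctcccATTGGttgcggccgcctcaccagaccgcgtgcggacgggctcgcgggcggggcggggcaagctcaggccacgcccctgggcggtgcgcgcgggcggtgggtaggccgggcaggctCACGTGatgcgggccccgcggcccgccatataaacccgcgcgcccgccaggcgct
SREBF2: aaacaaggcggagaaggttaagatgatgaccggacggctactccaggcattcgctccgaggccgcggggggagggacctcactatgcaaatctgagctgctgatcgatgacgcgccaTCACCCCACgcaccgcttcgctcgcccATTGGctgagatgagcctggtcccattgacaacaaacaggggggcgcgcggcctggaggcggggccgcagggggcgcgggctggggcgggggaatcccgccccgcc
SCD: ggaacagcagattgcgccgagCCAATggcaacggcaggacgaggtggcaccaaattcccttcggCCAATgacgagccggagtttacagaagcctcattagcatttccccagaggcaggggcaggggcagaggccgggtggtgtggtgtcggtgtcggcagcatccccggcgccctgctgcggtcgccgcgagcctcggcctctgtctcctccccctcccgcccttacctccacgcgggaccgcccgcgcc

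Promoter windows of 300 bases (250 before and 50 after the start) were listed for 26 of the 29 measured genes, as 36 windows, and not for ACAT2, FASN and SQLE. CCAAT in either orientation stood in 24 of the 36 windows (66.7%) and in 34.6% of all 35116 windows of the table. Counted by gene, it stood in at least 1 window of 11 of the 11 genes that fell and had an entry, and of 9 of the 15 other genes. The share by gene over all genes was not counted, and 8 members had 2 or more starts, so more windows to hold it. In FADS2, whose promoter is not shown, the only copy lay after the start. Whether the box goes with the falls was not tested. Windows with the box held 1 to 5 copies, with 5 in NSDHL, which fell, and in MVK, which did not pass the test. The NSDHL copies that begin 113 and 110 bases before the start overlap, being read on opposite strands. So do the copies 132 and 129 bases before 1 start of IDI1. GGGCGG, the GC box bound by SP-family factors and not capitalized above, stood in 32 of the 36 windows (88.9%) and in 45% of all windows. TCACNCCAC stood in 1 member window (2.78%), that of SREBF2, where it starts 133 bases before the transcription start, and in 1.13% of all windows. CACGTG stood in 5 member windows (13.9%), of LSS, SC5D, INSIG1 and SCAP, and in 7.26% of all. Both SC5D windows held the same copy, as they overlap, and the LSS copy lay after the start. In SC5D and ACLY, overlapping windows also counted the same CCAAT copies again. A match is a description of the letters, and these windows cover only the region close to the start.

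Along the mevalonate steps, 2 of 7 genes fell (28.6%, against 9.09% of all genes) and 0 rose. The median log2 difference was -0.48 (0.39 after scaling to the hybridization controls). HMGCS1, the cytosolic synthase that makes HMG-CoA, had log2 signals of 10.11, 9.39 and 10.30 in 15EN replicates 1, 2 and 3, against 11.51, 12.23 and 11.76 in VC replicates 1, 2 and 3. Every 15EN array was below every VC array, with 15EN replicate 2 the lowest, and the difference was -1.90 ± 0.29 (SE, adjusted p = 0.00155). FDPS makes farnesyl diphosphate, from which both sterols and isoprenoids branch. Its log2 signals were 10.09, 9.78 and 10.01 in 15EN against 10.76, 10.86 and 11.03 in VC, a fall of 1.90-fold (-0.92 ± 0.21, adjusted p = 0.010). The FDPS groups did not overlap, and the call was lost without VC replicate 3 (-0.85, adjusted p = 0.0512).

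The other 5 mevalonate genes did not pass the test. PMVK, which phosphorylates phosphomevalonate, was the member of this stretch with higher values in 15EN, at 8.78, 8.69 and 8.71 against 8.37, 8.02 and 8.28 in VC (0.50 ± 0.20, adjusted p = 0.113), and its groups did not overlap. MVK, the kinase one step earlier, had 7.76, 8.17 and 7.71 in 15EN against 8.31, 8.30 and 8.17 in VC (-0.38 ± 0.21, adjusted p = 0.262). ACAT2, the thiolase that joins acetyl-CoA units, averaged 7.85 ± 0.15 in 15EN and 8.33 ± 0.42 in VC (SD, n = 3 each), and the groups overlapped. MVD, the decarboxylase, lay on all 6 arrays at or below the level that 90% of negative control probe sets do not exceed, called dim here, so its -0.59 ± 0.25 (adjusted p = 0.125) says little. IDI1, the isomerase that makes the allylic building block, had 10.87, 10.35 and 9.40 in 15EN against 10.08, 10.50 and 10.52 in VC. The 15EN arrays of IDI1 spread on both sides of VC, and the difference was -0.16 ± 0.34 (adjusted p = 0.812).

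**Figure D1:**
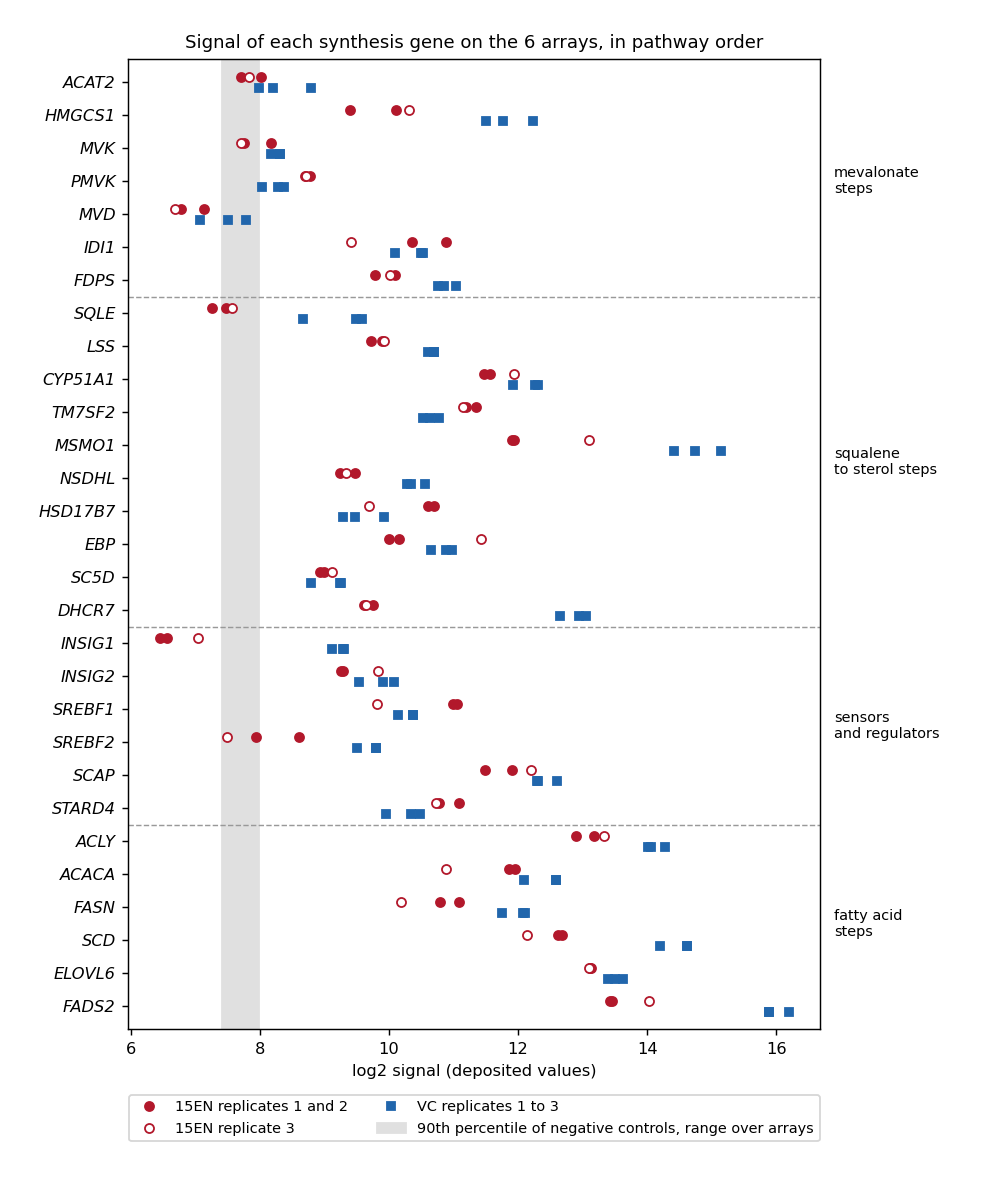
Log2 signal of the 29 synthesis and sensor genes on each array, in pathway order from top to bottom. Red circles are the 15EN arrays (open for replicate 3), blue squares the VC arrays, and the grey band spans the 90th percentiles of negative control probe sets over the 6 arrays (7.41 to 7.99). The 15EN points lie left of all VC points in 16 genes.

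From squalene to cholesterol, 5 of 10 measured genes fell (50%, against 9.09% of all genes) and 0 rose, with a median of -0.66 (0.21 after that scaling). DHCR7, the reductase that makes cholesterol from 7-dehydrocholesterol, fell most of all members. Its log2 signals were 9.61, 9.75 and 9.64 in 15EN against 12.64, 12.94 and 13.06 in VC. The 3 15EN arrays lay within a narrow range far below VC, and the difference was -3.22 ± 0.21 (adjusted p = 6.4e-05, 95% interval -3.68 to -2.75). Only 28 genes had a lower difference, which placed DHCR7 at rank 29 of 17687.

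MSMO1, the oxidase that removes methyl groups at carbon 4 of the sterol ring, had 11.90, 11.93 and 13.10 in 15EN against 14.41, 15.14 and 14.74 in VC. Replicate 3 was the highest of the 15EN arrays and still below VC, and the difference was -2.45 ± 0.34 (adjusted p = 0.000974). NSDHL acts in the same demethylation as MSMO1 and had 9.48, 9.24 and 9.33 in 15EN against 10.56, 10.27 and 10.33 in VC (-1.04 ± 0.20, adjusted p = 0.00539). SQLE, squalene epoxidase and a rate-limiting oxygen-dependent step, had 7.48, 7.25 and 7.57 in 15EN against 8.67, 9.49 and 9.58 in VC. SQLE was dim on 2 of the 3 15EN arrays, so the size of its fall (-1.81 ± 0.27, adjusted p = 0.00138) is uncertain. LSS, which folds the epoxide into lanosterol, had 9.89, 9.72 and 9.92 in 15EN against 10.70, 10.69 and 10.60 in VC. Its -0.82 ± 0.20 (adjusted p = 0.0142) no longer passed without 15EN replicate 2 (adjusted p = 0.0506), VC replicate 1 (0.0547) or VC replicate 2 (0.0623).

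The other 5 enzymes of this stretch did not pass, and they differed in sign. TM7SF2, a sterol reductase for the double bond at carbon 14, had 11.19, 11.35 and 11.15 in 15EN against 10.53, 10.77 and 10.63 in VC. Its 15EN arrays all lay above VC, with a difference of 0.59 ± 0.20 (adjusted p = 0.0635). HSD17B7, which reduces the ketone left by NSDHL, had 10.60, 10.70 and 9.68 in 15EN against 9.29, 9.92 and 9.46 in VC (0.77 ± 0.30, adjusted p = 0.102). HSD17B7 has closely related pseudogene copies, so its signal is uncertain, and 15EN replicate 3 lay inside the VC range. CYP51A1, the lanosterol demethylase, had 11.57, 11.47 and 11.94 in 15EN against 11.92, 12.30 and 12.26 in VC (-0.50 ± 0.23, adjusted p = 0.155). EBP, the sterol isomerase, had 10.15, 10.003 and 11.43 in 15EN against 10.88, 10.64 and 10.98 in VC, with 15EN replicates 1 and 2 below VC and replicate 3 above it (-0.31 ± 0.35, adjusted p = 0.615). SC5D, the desaturase that supplies the DHCR7 substrate, differed by -0.08 ± 0.22 (adjusted p = 0.854, 95% interval -0.56 to 0.40).

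**Figure D2:**
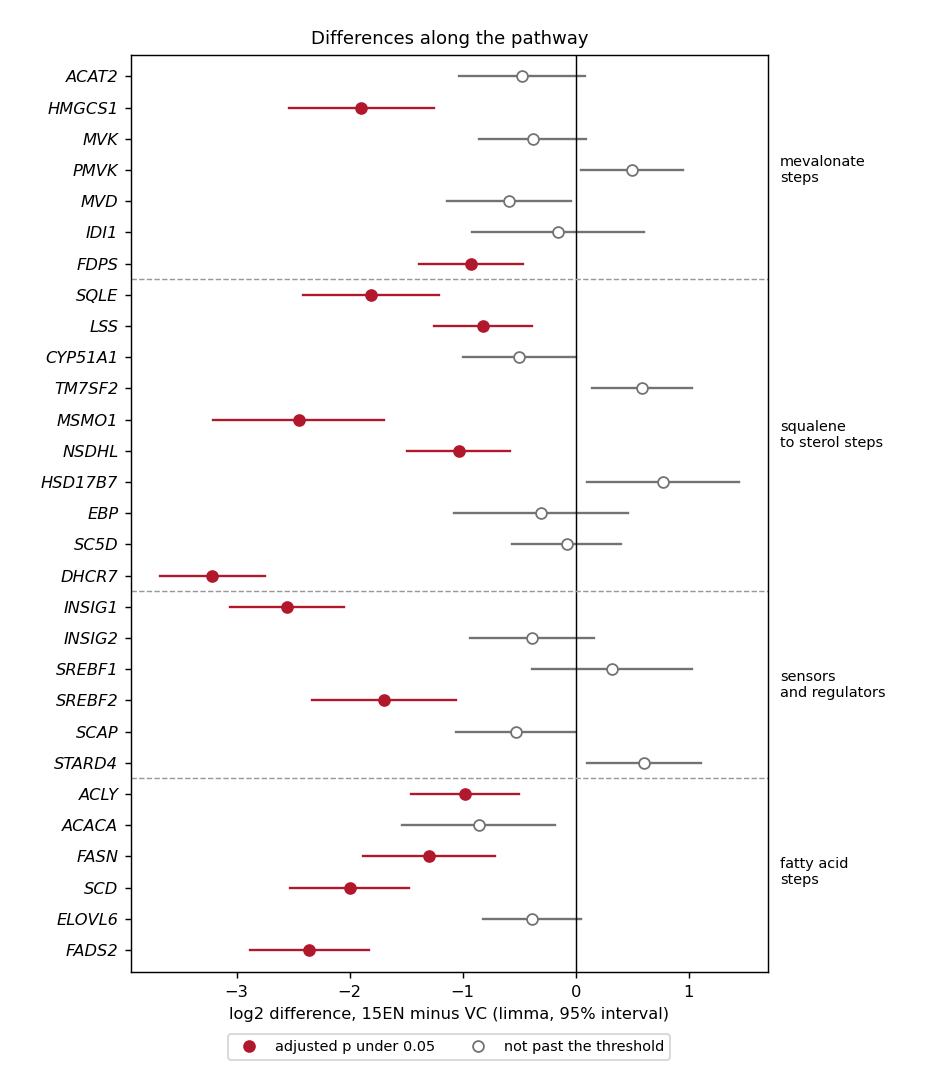
Log2 difference (15EN minus VC) of each gene with its 95% interval from the limma fit, in pathway order. Filled red points passed adjusted p 0.05 and open grey points did not. All 13 filled points are negative as deposited (LSS turns to 0.048 after scaling to the hybridization controls), and genes with large falls stand next to genes near 0 or above it.

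Among the sensors and regulators, 2 of 6 fell (33.3%, against 9.09% of all genes) and 0 rose, with a median of -0.46 (0.41 with hybridization controls made equal). INSIG1, the sterol-dependent anchor of SCAP and itself an SREBP target, had 6.55, 6.45 and 7.04 in 15EN against 9.28, 9.11 and 9.31 in VC. It was dim on all 3 15EN arrays and on none of the VC arrays, so its difference of -2.55 ± 0.23 (adjusted p = 0.000182) is uncertain in size. INSIG2, the second anchor, had 9.25, 9.28 and 9.83 in 15EN against 9.54, 10.08 and 9.90 in VC and did not pass (-0.38 ± 0.25, adjusted p = 0.332).

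SREBF2 had 7.93, 8.60 and 7.48 in 15EN against 9.50, 9.80 and 9.79 in VC, so that every 15EN array was lower (-1.70 ± 0.29, adjusted p = 0.00258), with 1 of them dim. SREBF1 did not pass, at 11.05, 10.99 and 9.81 in 15EN against 10.37, 10.38 and 10.14 in VC (0.32 ± 0.32, adjusted p = 0.557). Replicates 1 and 2 of SREBF1 in 15EN lay above VC and replicate 3 below it. Whether SREBF2 and SREBF1 differed from each other was not tested. SCAP had 11.49, 11.90 and 12.19 in 15EN against 12.29, 12.60 and 12.30 in VC (-0.53 ± 0.24, adjusted p = 0.154). STARD4, a carrier that moves cholesterol between membranes, had 10.78, 11.08 and 10.72 in 15EN against 9.95, 10.47 and 10.34 in VC (0.60 ± 0.23, adjusted p = 0.0878). The groups did not overlap for SCAP or STARD4, but neither passed the threshold.

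All 6 measured genes of fatty acid synthesis lay lower on every 15EN array than on any VC array, as did 16.6% of all genes. Of the 6, 4 passed the test (66.7%, where 9.09% of all genes were lower). The median was -1.14 (-0.27 after scaling to the hybridization controls). FADS2, the desaturase that starts the conversion of essential fatty acids, had 13.42, 13.45 and 14.02 in 15EN against 15.89, 16.19 and 15.88 in VC (-2.36 ± 0.24, adjusted p = 0.000249). SCD, which makes monounsaturated fatty acids, had 12.68, 12.61 and 12.14 in 15EN against 14.62, 14.61 and 14.19 in VC (-2.00 ± 0.24, adjusted p = 0.000447). Its 3 differences within a replicate number ran from -2.06 to -1.94.

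FASN, the synthase that builds palmitate, had 10.79, 11.08 and 10.18 in 15EN against 11.74, 12.08 and 12.11 in VC (-1.29 ± 0.26, adjusted p = 0.00637). ACLY, which supplies cytosolic acetyl-CoA from citrate to both pathways, had 12.90, 13.18 and 13.33 in 15EN against 14.05, 14.01 and 14.28 in VC (-0.98 ± 0.21, adjusted p = 0.0091). The FASN and ACLY falls were 2.45-fold and 1.97-fold. ACACA, the carboxylase that makes malonyl-CoA, had 11.85, 11.95 and 10.88 in 15EN against 12.09, 12.58 and 12.59 in VC. It did not pass (-0.86 ± 0.30, adjusted p = 0.0733), but it did once arrays were quantile normalized (-0.98, adjusted p = 0.0313) or a brightness trend was removed (-0.999, adjusted p = 0.0309). ELOVL6, which lengthens saturated chains, had 13.13, 13.12 and 13.10 in 15EN against 13.50, 13.62 and 13.39 in VC (-0.39 ± 0.20, adjusted p = 0.209).

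The 3 15EN arrays did not carry the change equally. The median deviation of the 29 members from the VC mean was -0.68, -0.69 and -0.77 on 15EN replicates 1, 2 and 3, so the arrays had a similar overall shift. Single genes were placed differently. Replicate 3 stood apart from the other 15EN arrays, by over 0.5 and over 3 times their distance from each other, in MSMO1, HSD17B7, EBP, INSIG2, SREBF1, ACACA and FADS2. Replicate 2 did so in HMGCS1, and replicate 1 in 0 members. Without 15EN replicate 3, 16 of the 29 members were lower and 4 higher, against 2240 lower and 3227 higher of all 17687 genes. The added lower members were CYP51A1 (-0.64), EBP (-0.76) and SCAP (-0.70). The higher ones were TM7SF2 (0.62), HSD17B7 (1.09), SREBF1 (0.72) and STARD4 (0.67).

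Within a replicate number, 20 of the 29 members were negative in all 3 differences, 4 were positive in all 3 (PMVK, TM7SF2, HSD17B7 and STARD4) and 5 were mixed (MVD, IDI1, EBP, SC5D and SREBF1). Over all genes, 4372 were negative in all 3, 4770 positive and 8544 mixed. The median SD of the members was 0.25 in 15EN and 0.20 in VC, against 0.31 in 15EN and 0.22 in VC for all genes.

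**Figure D3:**
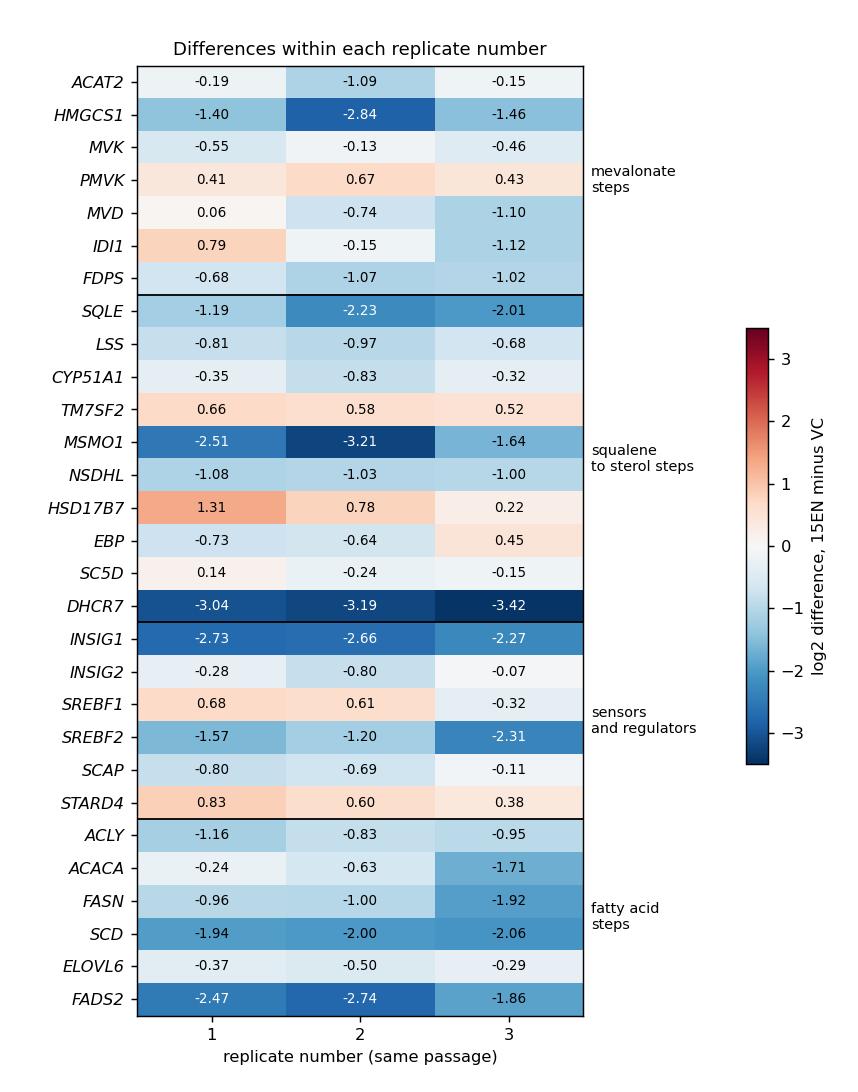
Log2 differences (15EN minus VC) of each member within each replicate number, drawn as colours from blue (lower in 15EN) to red (higher) with the value in each cell. DHCR7 was -3.04, -3.19 and -3.42 at numbers 1, 2 and 3, while IDI1 was 0.79, -0.15 and -1.12.

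Neighbouring gene lists give the context, to be read against the 9.09% of all genes that were lower and the 12.3% that were higher. Those shares are for the values as deposited. Over all 17687 genes, scaling to the hybridization controls gave 12150 higher and 437 lower. Leaving out 15EN replicate 3 gave 3227 higher and 2240 lower. Of 25 other SREBP target and synthesis genes, 17 had a named probe set, and 4 fell (23.5%) and 1 rose (5.88%), with a median of -0.47. TMEM97, a sterol-regulated membrane protein, had 9.93, 9.55 and 9.21 in 15EN against 12.65, 12.002 and 12.19 in VC (-2.72 ± 0.26, adjusted p = 0.000224). The desaturase SCD5 (-2.17 ± 0.33, adjusted p = 0.00157) and ERG28, in yeast a scaffold of the sterol demethylation enzymes (-1.12 ± 0.24, adjusted p = 0.00852), also fell. ME1, malic enzyme, which supplies NADPH, rose by 1.63 ± 0.27 (adjusted p = 0.00215). The count of 4 lower genes was 7 without 15EN replicate 3 and 8 with array weights, and scaling to the hybridization controls gave 2 lower and 5 higher. The fatty acid oxidation list had 3 higher (13.6%) and 2 lower (9.09%) of 22, close to the shares over all genes, with a median of 0.08. With the hybridization controls made equal it had 14 higher and 1 lower, against 12150 higher and 437 lower of all 17687 genes. Its named genes ran from PPARD, a nuclear receptor (-1.78 ± 0.26, adjusted p = 0.0013), and ECI2, an enoyl-CoA isomerase (-0.88 ± 0.22, adjusted p = 0.0182), to CPT2, the inner carnitine transferase (0.92 ± 0.23, adjusted p = 0.0168), and ECHS1, the enoyl-CoA hydratase (1.13 ± 0.23, adjusted p = 0.00577). That list had 3 higher and 3 lower genes without 15EN replicate 3, and 1 of each without any other single array.

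In the machinery that processes SREBPs or degrades its partners, 4 of 15 fell (26.7%) and 3 rose (20%), with a median of 0.12. MBTPS1, the site-1 protease that makes the first cut in SREBPs, had 9.28, 9.82 and 9.64 in 15EN against 11.42, 11.60 and 11.61 in VC (-1.97 ± 0.22, adjusted p = 0.000359). RNF145, a sterol-responsive ubiquitin ligase, also fell (-1.74 ± 0.22, adjusted p = 0.000569). FBXW7, the ligase subunit that marks active SREBPs for breakdown, rose by 1.43 ± 0.26 (adjusted p = 0.00347), and SAR1B, a GTPase of the vesicles that leave the endoplasmic reticulum, by 1.07 ± 0.21 (adjusted p = 0.00487). Without 15EN replicate 3, 5 genes of this list were higher and 5 lower. With the hybridization controls made equal 9 were higher and 2 lower, against 12150 higher and 437 lower of all 17687 genes.

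In the isoprenoid branch, 6 of 12 measured genes rose (50%) and 1 fell (8.33%), with a median of 0.65. Over all genes 12.3% were higher and 9.09% lower. With the hybridization controls made equal, 10 were higher and 0 lower, against 12150 higher and 437 lower of all 17687 genes. FNTA, the shared subunit of protein prenyl transferases, had 10.32, 10.75 and 10.24 in 15EN against 8.64, 9.34 and 8.91 in VC (1.47 ± 0.25, adjusted p = 0.00266). GGPS1, which makes geranylgeranyl diphosphate (0.89 ± 0.22, adjusted p = 0.0176), and TRIT1, a tRNA isopentenyl transferase (0.93 ± 0.25, adjusted p = 0.0248), rose too, whereas ICMT, which methylates prenylated proteins, fell (-1.18 ± 0.28, adjusted p = 0.0129). The count of 6 held without 15EN replicate 3 and was lower when any other array was left out, at 2 for 15EN replicate 1, 15EN replicate 2, VC replicate 2 and VC replicate 3, and at 1 for VC replicate 1. ICMT no longer passed when any of 15EN replicates 1 and 2 and VC replicates 1 and 2 was left out.

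Of 11 measured LXR targets and sterol export genes, 2 rose (18.2%, against 12.3% of all genes) and 0 fell, and 5 were dim on all 6 arrays. With the hybridization controls made equal, 8 were higher and 0 lower, against 12150 higher and 437 lower of all 17687 genes. ABCA1, the pump that loads cholesterol onto apolipoproteins, had 11.97, 12.70 and 12.40 in 15EN against 9.57, 10.27 and 9.89 in VC (2.45 ± 0.27, adjusted p = 0.000324). ABCG1, a partner exporter, had 11.10, 10.64 and 8.85 in 15EN against 6.09, 5.87 and 6.26 in VC, where it was dim on all 3 arrays, so its difference is uncertain in size (4.12 ± 0.48, adjusted p = 0.000401). In sterol uptake, esterification and intracellular transport, 7 of 20 fell (35%, against 9.09% of all genes) and 1 rose (5%), with a median of -0.34. The counts were 4 lower and 9 higher with the hybridization controls made equal, where all 17687 genes had 437 lower and 12150 higher. This list had 7 lower and 2 higher without 15EN replicate 3, where all genes had 2240 lower and 3227 higher. LRP1, a lipoprotein receptor, fell by 2.60 on the log2 scale (SE 0.22, adjusted p = 0.000151). The lysosomal membrane protein SCARB2 (-2.05 ± 0.25, adjusted p = 0.000526), the reelin and apolipoprotein E receptor LRP8 (-2.02 ± 0.27, adjusted p = 0.000862) and GRAMD1A, a sterol carrier at membrane contacts (-1.45 ± 0.24, adjusted p = 0.00227), fell as well. LRP8 was dim on 1 of the 3 15EN arrays, so the size of its fall is uncertain.

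**Figure D4:**
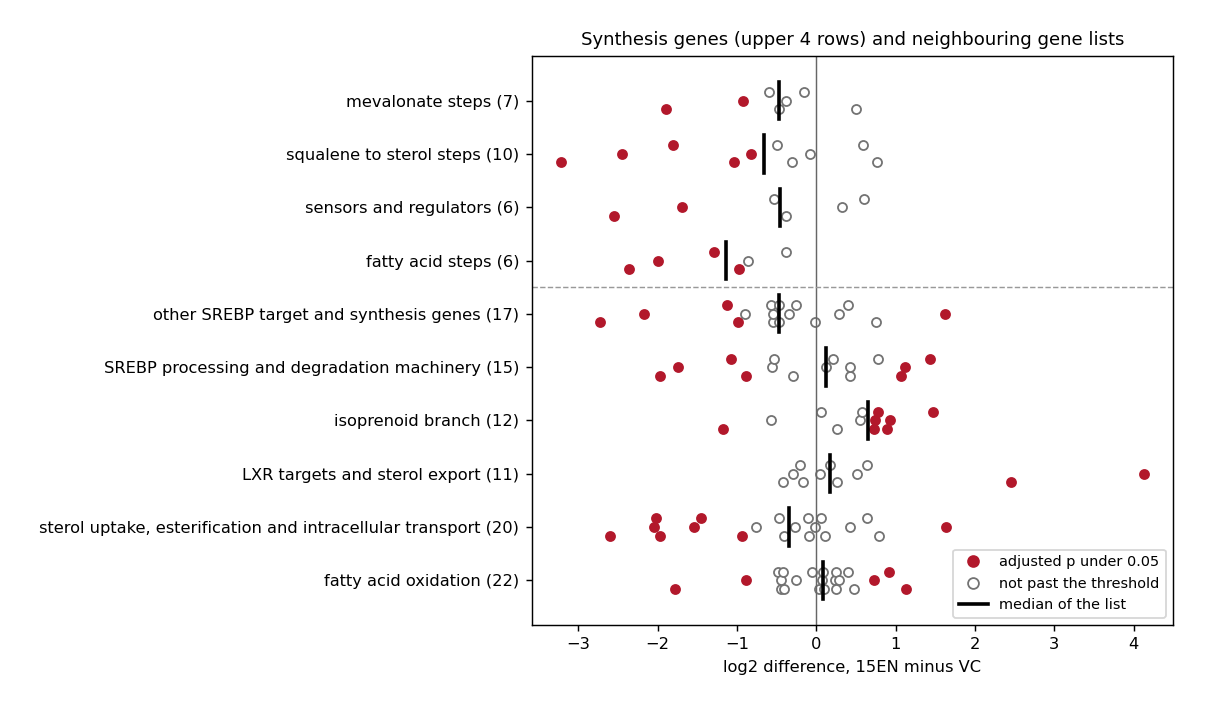
Log2 difference (15EN minus VC) of every measured gene in the 4 stretches of the pathway (upper rows) and in 6 neighbouring lists (lower rows), with the number of genes in brackets. Filled points passed adjusted p 0.05, and black bars are medians, which run from -1.14 for fatty acid steps to 0.65 for the isoprenoid branch as deposited, and scaling to the hybridization controls adds 0.87 to every value.

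The arrays had median log2 signals of 7.67 to 7.76, and 15EN replicate 3 correlated less with 15EN replicates 1 and 2 (Pearson's r 0.979 and 0.980 over all probe sets) than these did with each other (0.991). The adrenergic type was assigned to the labelled line here and is not taken from the labels. Of 14 markers of adrenergic neuroblastoma cells, 8 were lower in 15EN (57.1%, against 9.09% of all genes), 0 higher and 6 did not pass. Their median difference was -1.01, and median levels over the list were 10.63 to 10.86 in 15EN against 11.90 to 12.26 in VC. TH, CHGA and NEFL of that list were dim on all 6 arrays. Markers of substrate-adherent neuroblastoma cells had 5 higher (25%, against 12.3% of all genes) and 3 lower (15%, against 9.09%) of 20. Of the 20 differences 12 were negative, with a median of -0.13, and 6 of these markers were dim on all 6 arrays. Median levels over the list were 9.20 to 10.77 in 15EN against 8.31 to 9.21 in VC. Fibroblast markers had 0 higher and 2 lower (20%, against 9.09% of all genes) of 10, and 3 of them were dim on all 6 arrays. The fibroblast list had a median difference of -0.18 and median levels of 7.48 to 8.88 in 15EN against 8.85 to 9.43 in VC. Of 9 Schwann cell and glial markers 8 were dim on all 6 arrays and 0 changed, with a median difference of -0.12 and median levels of 3.79 to 4.39 in 15EN against 4.03 to 4.39 in VC. The part of these markers in the differences of the synthesis genes was not tested.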

How the data were processed

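Total RNA of 6 SH-SY5Y samples was hybridized to 1-colour whole-transcript Affymetrix arrays. The log2 signals used are the values the authors deposited, made with the Transcriptome Analysis Console per the submitters' processing notes. The sources used here do not give its version, the normalization or the genome build, and the log2 scale was judged from the values (2.20 to 18.82). Of 24351 probe sets, 2903 are controls. Of 21448 gene probe sets, 17709 carry 1 symbol in the platform annotation, 0 several and 3739 none. The probe set of highest mean was kept per gene (22 set aside, none of a member), which left 17687 genes, with no filter on dim probe sets. Dim means at or below the 90th percentile of 612 negative controls on that array, and is not a detection call.

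The test was limma (version 3.58.1, R 4.3.3), two-sided, by lmFit and eBayes with group as the only term, adjusted by Benjamini-Hochberg over all 17687 genes. Errors are SEs of that fit or, beside means, SDs over 3 arrays, and the number of arrays limits the precision. The procedure was tested on simulated data. Every measured member is named, with up to 4 genes of smallest p that passed from each neighbouring list. Marker genes are named only where a defining one is dim. Members and lists were chosen with earlier results of these data known, so counts over them are descriptions. Counts of listed genes carry no test of the list.

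The labels tie each replicate number to a passage. Deviations from the group means correlated across genes at 0.229, 0.162 and 0.133 for arrays of the same number, against -0.138 to -0.0165 for others. Deviations in a group cancel for each gene, so positive values for the same number make the others negative on average. The contrast with other numbers is therefore not separate evidence, and the pairing was taken from the labels. The printed values come from the fit without the pairing, and the fit with it was an alternative. Alternatives were the replicate block, quantile normalization, scaling to 4 hybridization control probe sets, removal of a brightness trend, the dimmest tercile of genes left out, array weights, a trended robust prior, probe sets of a gene averaged, and each array left out. Promoter sequences are from RefSeq (GRCh38.p14), matched by symbol.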

Additional observations from a re-analysis of the deposited data

How the results depend on the processing

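Over 29 members and 14 alternatives, 364 of 406 values kept their direction and their side of the threshold. Averaging probe sets could not change a member's difference, since no member had several, and its 29 values are among the 364. The replicate block, the dimmest tercile left out and the trended robust prior also keep each difference and alter only its p-value. The fit with the replicate block, which pairs arrays of one number, gave 13 lower and 0 higher members and changed the call of no member. HMGCS1, SQLE, MSMO1, DHCR7, INSIG1, SREBF2, SCD and FADS2 were lower under all 14 alternatives, and 11 of the 13 lower members under the 13 other than scaling to the hybridization controls, the exceptions being LSS and FDPS. That scaling gave 8 lower and 6 higher members with a median of 0.28, and 12150 higher and 437 lower genes with a median of 0.88. Under it LSS turned to 0.048 (adjusted p = 0.851) and SC5D to 0.79 (adjusted p = 0.0174), and FDPS (-0.06), NSDHL (-0.17), ACLY (-0.11) and FASN (-0.43) no longer passed, because the same 0.87 is added to every difference and the test is still against 0. Members called higher were 1 without the dimmest tercile (TM7SF2) and 2 with array weights (TM7SF2 and HSD17B7), which also gave 3158 higher and 2244 lower genes. With 1 array left out, the counts were 12 to 16 lower and 0 to 4 higher members with medians from -0.79 to -0.55. Over all genes they were 1301 to 3227 higher and 970 to 2240 lower, with medians from -0.045 to 0.036, and the highest counts came without 15EN replicate 3. The cause of these changes was not tested. Signal near the negative controls limits the sizes for INSIG1, SQLE, SREBF2 and MVD.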
